A study of Rattus norvegicus with 6 samples.

Results

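Clec7a/Olr1 macrophages of the rat pancreas were 1473 of 27529 macrophages (5.35%) and 1.94% of the 75981 cells kept from 6 single-cell RNA libraries. A cell was kept with at least 200 detected genes and at most 25% mitochondrial transcripts. It was called a macrophage when at least 3 of the 6 genes C1qa, C1qb, C1qc, Csf1r, Cd68 and Ms4a7 had a UMI, a unique molecular identifier that counts 1 captured transcript, and the T cell genes Cd3e, Cd3d and Cd3g had none. Members had no UMI of Lyve1, Fcna or Ccl24 and at least 2 UMIs of Clec7a and Olr1 together, so the cells were chosen by the measured UMIs of these 14 genes, whose levels are given as a description. A further 3 classes cut in the same way served as the comparison, namely 16414 Lyve1/Fcna macrophages with at least 2 UMIs of Lyve1 and Fcna together, 413 Ccl24 macrophages with at least 2 UMIs of Ccl24 and none of Lyve1 or Fcna, and 4045 Clec7a/Olr1-low macrophages that met the rule except that they had at most 1 UMI of Clec7a and Olr1. The remaining 5184 macrophages lay between these classes.

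The study asked how age and a long-term high-fat high-fructose (HFHF) diet alter the pancreas of male Wistar rats, with 2 rats and 1 library per rat in each of 3 groups. Young rats were 2 months old and on a normal diet, old rats ate the normal diet from 2 to 20 months of age, and HFHF-old rats ate the HFHF diet over the same 18 months. Islets were isolated by collagenase P digestion of the pancreas and a density gradient, so the shares of cells describe that preparation and not the whole organ. The libraries held between 77387928 and 166875258 UMIs and shared 20 to 66 cell barcodes per pair over the 15 pairs. HFHF-old replicate 2 stood apart, since macrophages made up 0.63% of its cells and 23.6% to 67.6% of the cells in the other 5 libraries. Only 74 macrophages and 32 members came from it. The share of macrophages and several fitted differences between groups are given with and without it.

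Clec7a encodes Dectin-1, a C-type lectin receptor of myeloid cells that binds β-glucan of fungal cell walls and signals through the kinase Syk and the adaptor Card9. Olr1 encodes LOX-1, a scavenger receptor for oxidised low-density lipoprotein that belongs to the same C-type lectin-like family and is also made by endothelial cells. Lyve1, Fcna, Cd163, Mrc1 and Folr2 are genes of perivascular and other tissue-resident macrophages, while MHC class II, Cx3cr1 and Itgax mark macrophages that present antigen.

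Young replicates 1 and 2 gave 155 and 171 members, the old rats gave 349 and 583, and the HFHF-old rats gave 183 and 32. As a share of macrophages they made up 2.05% (95% Clopper-Pearson interval 1.74% to 2.40%) and 3.34% (2.87% to 3.87%) in the young rats, 14.2% (12.9% to 15.7%) and 15% (13.9% to 16.2%) in the old rats, and 2.16% (1.87% to 2.50%) and 43.2% (31.8% to 55.3%) in the HFHF-old rats. These intervals cover counting error only. Both old libraries lay above both young libraries, and the HFHF-old libraries lay on either side of the old ones. Averaged by group, the share was 2.70% ± 0.915 (SD, n = 2) for young, 14.6% ± 0.580 (SD, n = 2) for old and 22.7% ± 29.0 (SD, n = 2) for HFHF-old rats. The two-sided exact permutation test gave p = 0.333 for old against young rats (adjusted p = 1 over the 3 contrasts), where 0.333 is the smallest p that 2 against 2 rats allow, p = 1 for HFHF-old against old rats and p = 0.667 for HFHF-old against young rats. Without HFHF-old replicate 2, the difference between HFHF-old and old rats was -12.5 percentage points in place of 8.07, and that between HFHF-old and young rats was -0.533 in place of 20.0.

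Cell depth and the zero counts in the rule bear on these shares. When each macrophage was thinned to 2000 UMIs, members were 1.86% and 2.42% of macrophages in the young, 10.9% and 13.4% in the old, and 3.31% and 34.8% in the HFHF-old libraries, with 8 to 1493 shallower macrophages left out per library. The order of young and old libraries was kept, while both HFHF-old libraries then lay above both young ones (two-sided exact permutation p = 0.333, adjusted p = 0.5 over the 3 contrasts), which overlapped at full depth. The HFHF-old replicate 1 share of 3.31% compares with a thinned young mean of 2.14%. Counted without regard to Lyve1, Fcna and Ccl24, macrophages with at least 2 UMIs of Clec7a and Olr1 were 7.54% and 8.80% in young, 37.2% and 26.4% in old, and 26.9% and 64.9% in HFHF-old rats. Of these cells 2277 came from HFHF-old replicate 1, where 2057 carried a Lyve1 or Fcna UMI and members were 8.04%, against 27.2% to 66.7% in the other libraries. T cells, which lack Lyve1 and Fcna, had a UMI of either gene in 36.1% of cells in that library and in 0.534% to 17.2% in the others, and the part of such free RNA in the low share was not tested. T cells with at least 2 UMIs of Clec7a and Olr1 were 0% to 2.66% per library. Their median depth was 3166 to 8050 UMIs, against 2922 to 11230 UMIs in macrophages.

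**Figure D1:**
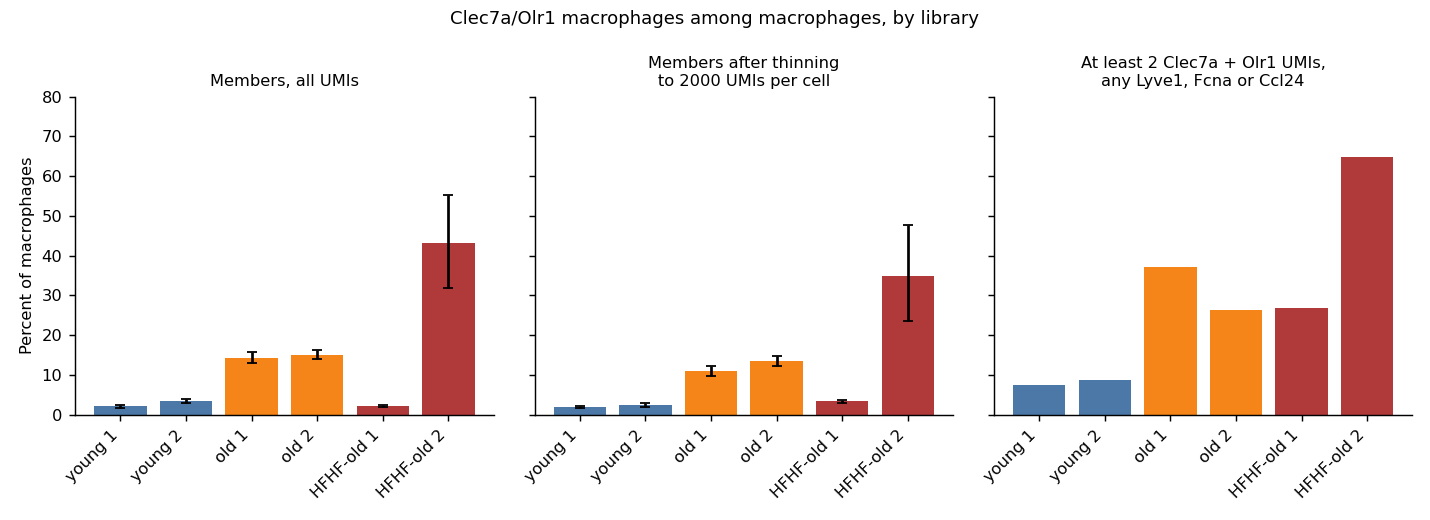
Percent of macrophages per library that were Clec7a/Olr1 macrophages with all UMIs (left), after thinning to 2000 UMIs per cell (middle), and with at least 2 Clec7a and Olr1 UMIs whatever the other genes (right). Bars are libraries coloured by group, error lines are 95% Clopper-Pearson intervals, and both old libraries (14.2% and 15% at full depth) lie above both young libraries (2.05% and 3.34%) in each panel.

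Of all cells kept, members were 0.886% and 1.66% in the young, 4.67% and 3.55% in the old, and 1.46% and 0.273% in the HFHF-old libraries. Here both old libraries lay above the other 4, and the exact permutation test of old against young rats and that of HFHF-old against old rats both gave p = 0.333 (adjusted p = 0.5 each over the 3 contrasts). Around the threshold, 4 to 258 cells per library had exactly 1 UMI of Clec7a and Olr1 and were left out, and 4 to 165 had exactly 2 and were kept. Members with 5 or more such UMIs numbered 53 and 66 in the young, 244 and 195 in the old, and 94 and 22 in the HFHF-old libraries. A doublet score computed per library from simulated doublets marked 152 of the 1473 members (4.37% to 14.4% per library) and 8262 of the 75981 cells kept. The number of cells marked per library was set beforehand, at 0.8% per 1000 barcodes, so the score only ranked the cells. Members were marked more often than all cells in young replicate 2 and in both old libraries, and less often in the other libraries. The marked members were kept. Without them the share of macrophages differed by 12.6 percentage points between old and young rats, in place of 11.9.

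Both receptors were seen, with Clec7a far more often. Clec7a had a UMI in 94.8% and 97.1% of members in the young, 98.9% and 98.3% in the old, and 92.3% and 100% in the HFHF-old libraries. Olr1 had a UMI in 25.2% and 28.1% of young, 41.0% and 24.0% of old, and 49.2% and 65.6% of HFHF-old members. The HFHF-old libraries thus had the highest shares of Olr1-bearing members, and the groups of young and old overlapped. Over all libraries 992 members had Clec7a alone, 440 had both and 41 had Olr1 alone. With Olr1 were 26.6% ± 2.06 (SD, n = 2) of members on average in young rats, 32.5% ± 12 (SD) among old and 57.4% ± 11.6 (SD) among HFHF-old rats. The rule bears on these shares, so their permutation test is not read as a result. HFHF-old minus old rats came to 24.9 percentage points, and to 16.7 without HFHF-old replicate 2. In UMIs per member, Olr1 averaged 0.794 and 0.614 in young, 2.13 and 0.640 in old, and 3.86 and 6.34 in HFHF-old libraries. Clec7a averaged 4.37 and 4.13, 7.79 and 3.69, and 4.08 and 6.38 in the same order. Olr1 was spread unevenly among cells, with up to 64, 65 and 63 UMIs in 1 member of old replicate 1 and of HFHF-old replicates 1 and 2. Olr1 was also present in endothelial cells, at 0 to 0.207 UMIs per cell in 5 libraries and 1.36 in HFHF-old replicate 2.

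Lyz2, C1qa, Csf1r and Cd83 were found in most members of each library, Ms4a7 and Cxcl2 in fewer. C1qa, the A chain of complement C1q, was detected in 93.4% to 100% of members, the growth factor receptor Csf1r in 87.1% to 96.3% and Ms4a7 in 21.9% to 39.5%. Lyz2, the lysozyme of myeloid cells, was detected in 96.2% to 100%, the activation marker Cd83 in 84.7% to 96.3% and the neutrophil-attracting chemokine Cxcl2 in 34.4% to 68.2%. Lyz2 averaged 43.3 and 41.4 UMIs per member in the young, 146 and 56.8 in the old, and 72.4 and 80.7 in the HFHF-old libraries. Cd83 and Cxcl2 overlapped between these cells and the Lyve1/Fcna macrophages described below. In counts per 1e6 UMIs summed over the cells of a class in a rat (CPM), Cd83 lay at 403 to 1519 in members and 348 to 983 in Lyve1/Fcna macrophages, a log2 difference of 0.34 ± 0.22 (SE). Cxcl2 lay at 189 to 605 and 266 to 749 CPM, a log2 difference of -0.26 ± 0.32 (SE). Against the Clec7a/Olr1-low macrophages both were called higher in members, Cd83 by 1.61 ± 0.23 (SE, edgeR adjusted p = 7.22e-05) and Cxcl2 by 1.61 ± 0.34 (edgeR adjusted p = 0.0012) on the log2 scale. Lyz2 was called higher in members than in both of these classes, at 4252 to 11457 CPM against 1520 to 3578 in Lyve1/Fcna (1.56 ± 0.36, edgeR adjusted p = 0.00475) and 363 to 7177 in low macrophages (1.85 ± 0.37), and each of these 2 calls was lost under 1 of 14 alternatives. Against Ccl24 macrophages neither Lyz2 nor Cd83 was called. Over 13 alternatives their log2 differences there were 0.875 to 1.32, called under 3, and 0.32 to 0.60, called under 0.

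**Figure D2:**
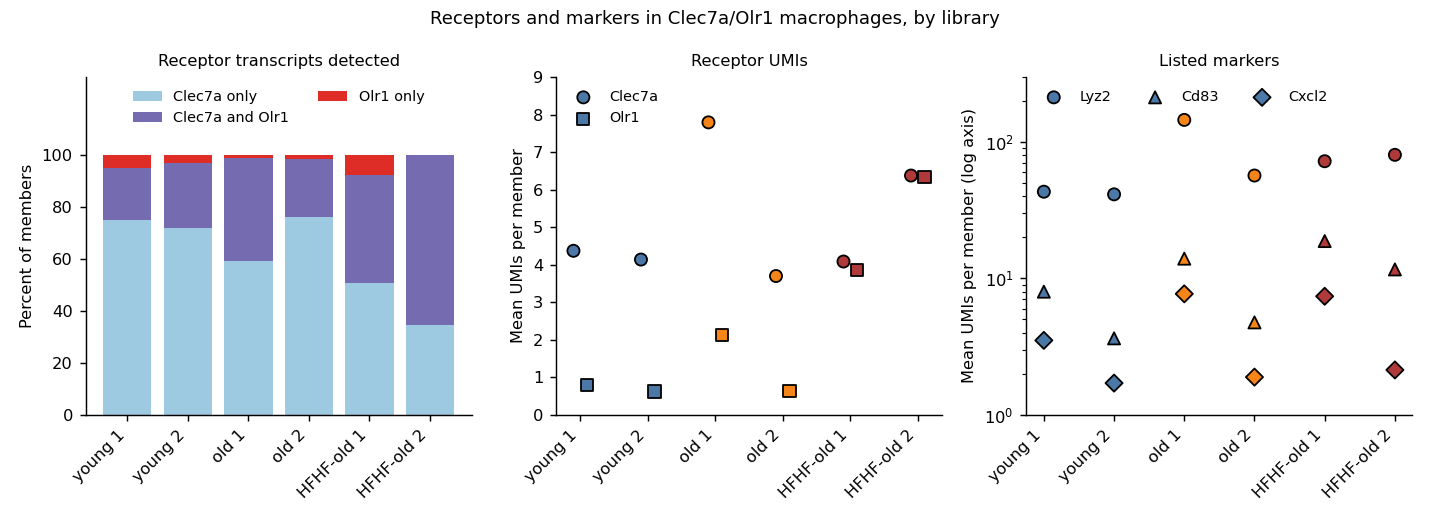
Left, percent of members with a UMI of Clec7a, of both receptors or of Olr1 alone in each library; middle, mean Clec7a (circles) and Olr1 (squares) UMIs per member; right, mean UMIs per member of Lyz2, Cd83 and Cxcl2 on a log axis. Colours are the groups, 1 value per library, and Olr1 per member is highest in the HFHF-old libraries (3.86 and 6.34).

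Where the members differed from their most abundant neighbours was tested on UMI counts summed per rat and class in the 5 rats with at least 10 cells in each of 4 classes, with the rat as a block (edgeR, 13005 genes, rule genes left out, adjusted p under 0.05 and a fold over 1.5). HFHF-old replicate 2, with 0 Ccl24 macrophages, was not in this fit. A fit of the other 3 classes over all 6 rats, added after seeing the data, called 2468 genes against Lyve1/Fcna and 4223 against low macrophages, and the fit without labelled doublets called 2706, 1663 and 4390 against Lyve1/Fcna, Ccl24 and low macrophages. Against Lyve1/Fcna macrophages 2416 genes were called (18.6%), of which 905 were higher (6.96%) and 1511 lower (11.6%) in members. Members were higher in 10 of 12 MHC class II and co-stimulation genes, in 8 of 23 Dectin-1 signalling genes and in the Fc receptor Fcgr3a and the integrin chain Itgax, and lower in 12 of 17 tissue-resident genes, in 7 of 19 chemokines and in apolipoprotein E. The classes were cut on Lyve1 and Fcna, so a lower level of other resident genes may follow from the rule. Their median depth per library was 4547 to 10898 UMIs, against 3078 to 12245 in Lyve1/Fcna macrophages, and was lower than theirs in both HFHF-old libraries and higher in the other 4. All 12 acinar markers (median log2 difference -1.73), 7 of 10 endocrine markers (-2.20) and 3 of 8 fibroblast markers (-0.88) were called lower in members as well. With digestive enzyme and hormone genes left out before scaling, 2349 genes were called, and the part of foreign RNA in these calls was not tested further.

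Of 23 genes of Dectin-1 signalling, 8 were higher and 0 lower in members, with a median log2 difference of 0.33 against -0.05 over all genes tested. Card9, the adaptor below Syk, was at 27.3, 41.0, 35.9, 33.1 and 24.8 CPM in members of the 2 young rats, the 2 old rats and HFHF-old replicate 1, and at 13.9, 16.2, 17.7, 14.6 and 9.80 CPM in the Lyve1/Fcna macrophages of the same rats. It was higher in 5 of 5 rats, with a log2 difference of 1.19 ± 0.23 (SE, edgeR adjusted p = 0.00126). Lyn, a Src-family kinase, was at 968 to 1301 CPM against 290 to 542 (log2 difference 1.53 ± 0.22, edgeR adjusted p = 0.000108), and the adaptor Blnk was at 232 to 308 against 106 to 142 CPM (1.13 ± 0.27, edgeR adjusted p = 0.00654). For none of these 3 genes did the ranges overlap.

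The list of pattern recognition and scavenger receptors was split, with 5 of 30 higher and 10 lower. Fcgr3a, an activating receptor for IgG, was at 387, 237, 304, 571 and 220 CPM in members and 30.3, 50.8, 50.3, 115 and 60.9 in Lyve1/Fcna macrophages in the same order of rats, a log2 difference of 2.53 ± 0.36 (SE, edgeR adjusted p = 0.000107). Tlr1, a partner of Tlr2 in the recognition of bacterial lipopeptides, was at 35.8 to 75.5 against 9.85 to 15.7 CPM (2.17 ± 0.36, edgeR adjusted p = 0.000408). The hemoglobin-haptoglobin receptor Cd163 went the other way, at 122, 47.5, 10.4, 24.1 and 51.7 CPM in members against 1473, 766, 1062, 1025 and 1344 (-4.82 ± 0.46, edgeR adjusted p = 3.18e-06). Every rat had at least 766 CPM of Cd163 in its Lyve1/Fcna macrophages and at most 122 in its members. The mannose receptor Mrc1 was at 256 to 578 against 1384 to 2349 CPM, and the scavenger receptor Stab1 at 5.64 to 19.9 against 85.6 to 158 CPM. Both were called lower, with log2 differences of -2.04 ± 0.30 and -3.54 ± 0.43 (SE).

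Antigen presentation genes had the highest median of the 16 lists. Of 12 genes of MHC class II and co-stimulation, 10 were higher and 0 lower, with a median log2 difference of 1.46. Cd74, the invariant chain that guides class II molecules, was at 8333, 8973, 11959, 12461 and 7012 CPM in members against 2914, 4400, 5052, 3268 and 1540 (1.60 ± 0.27 SE, edgeR adjusted p = 0.000489). The class II chains RT1-Da, RT1-Db1 and RT1-Ba differed by 1.60 ± 0.29, 1.56 ± 0.29 and 1.56 ± 0.28 on the log2 scale, and Ciita, the transcriptional activator of class II genes, was at 50.9 to 97.2 against 14.8 to 49.8 CPM (1.5 ± 0.31). RT1 genes are polymorphic and alike in sequence, so how their reads were divided among them is uncertain. Itgax, the CD11c integrin chain, was at 40.3 to 61.9 against 10.4 to 14 CPM (2.14 ± 0.25, edgeR adjusted p = 1.99e-05).

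The genes with the largest differences were of several kinds. Mmp12, the macrophage elastase, was at 176, 49.4, 75.3, 226 and 46.9 CPM in members and 1.95, 5.35, 6.38, 26.9 and 2.93 in Lyve1/Fcna macrophages, the highest log2 difference of the genes tested at 4.00 ± 0.55 (SE, edgeR adjusted p = 8.24e-05). Cx3cr1, the fractalkine receptor of monocytes and resident macrophages, was at 43.3 to 72.8 against 5.35 to 9.18 CPM (2.93 ± 0.31). The inhibitory leukocyte receptor Lilrb3 was at 42.6 to 71.7 against 5.96 to 8.36 CPM, the potassium channel Kcnk10 at 17.4 to 56.4 against 1.99 to 7.17, and the cation channel Trpc6 at 133 to 233 against 11.9 to 41.9. Tmcc3 (2.82 ± 0.29), the adaptor Sh2d1b (2.78 ± 0.30) and the Ly49-family receptor Klra1 (3.34 ± 0.39) were higher too, Klra1 at 135 CPM in members of old replicate 1 and 7.81 to 19.1 in the other 4 rats. Klra1 belongs to a multigene family, so its counts are uncertain. Of 16 monocyte genes 6 were higher and 5 lower, among them the sialomucin Spn at 105 to 198 against 22.1 to 36.2 CPM and Fcnb at 1.56 to 31.8 against 0.256 to 7.82. Fcnb was lower in members of old replicate 2, and its call was lost under 7 of 14 alternatives.

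Among secreted factors, 1 of 19 chemokines was higher, 7 were lower and 11 were not called. Ccl7, which attracts monocytes, was at 15.2, 2.60, 12.6, 13.1 and 17.2 CPM in members against 403, 220, 532, 691 and 260 (-5.07 ± 0.41 SE, edgeR adjusted p = 7.82e-07). Ccl2, a ligand of the same receptor Ccr2, was at 23.1 to 96.4 against 351 to 861 CPM (-3.70 ± 0.45), and Pf4 at 92.5 to 184 against 673 to 2533 (-2.98 ± 0.32). Cxcl16, which binds oxidised lipoprotein as well as its receptor, was the exception at 141 to 325 against 38.0 to 82.2 CPM (1.92 ± 0.23). Of 21 cytokines and growth factors 5 were higher and 4 lower. The interleukin-1 receptor antagonist Il1rn was at 34.5 to 65.6 against 6.43 to 19.3 CPM (2.08 ± 0.52, edgeR adjusted p = 0.00831, lost under 3 of 14 alternatives) and the B cell survival factor Tnfsf13b at 35.5 to 69.5 against 10.5 to 23.0 (1.81 ± 0.22). Il10 was at 0 to 2.21 against 1.74 to 11.2 CPM (-2.93 ± 0.51) and Igf1 at 107 to 264 against 303 to 493 (-1.27 ± 0.25). Il1b was not called, at 52.0, 69.6, 345, 272 and 194 CPM in members and 65.1, 32.9, 323, 297 and 58.6 in Lyve1/Fcna macrophages (0.57 ± 0.32, edgeR adjusted p = 0.201).

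Tissue-resident genes had the lowest median of the 16 lists, with 12 of 17 lower and 0 higher in members (median log2 difference -1.94). Lyve1 and Fcna, resident genes themselves, set these classes apart by rule. Genes that go with them were thus likely to be lower in members, so this direction is not separate evidence. F13a1, the A chain of coagulation factor XIII, was at 49.5, 25.4, 12.2, 10.6 and 36.7 CPM in members against 1620, 931, 1334, 1248 and 1164 (-5.61 ± 0.45 SE, edgeR adjusted p = 7.82e-07). The folate receptor Folr2 was at 94.9 to 201 against 407 to 897 CPM and the selenium carrier Selenop at 43.5 to 73.4 against 273 to 565, both lower in 5 of 5 rats. Of 28 lysosome and lipid-handling genes 5 were higher and 10 lower, among the latter Apoe at 614 to 1189 against 3946 to 20092 CPM (-3.44 ± 0.31), the lysosomal protease Ctsb at 529 to 1421 against 2204 to 5406 (-1.89 ± 0.23) and the lipid receptor Trem2 at 54.8 to 96.4 against 108 to 367 (-1.25 ± 0.26). Spp1, osteopontin, was not called (22.6 to 179 against 18.8 to 67.7 CPM, edgeR adjusted p = 0.256). The genes most reduced beyond these lists included the lectin Cd209f at 0 to 0.677 against 17.0 to 83.0 CPM, the neuregulin receptor Erbb3 at 0.226 to 2.60 against 32.9 to 59.6, Egfl7 at 0.451 to 6.51 against 18.7 to 80.5 and podoplanin, Pdpn, at 1.30 to 55.3 against 100 to 358.

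Of 25 NF-kB response genes 6 were higher and 2 lower, with Rel, an NF-kB subunit, at 44.2 to 202 against 15.1 to 98.7 CPM (1.18 ± 0.25 SE) and Tnfaip2 at 1.95 to 19.9 against 13.5 to 66.7 (-1.76 ± 0.29). The 23 immediate early and dissociation response genes had 0 higher and 8 lower, such as Egr1 at 221, 57.9, 186, 303 and 841 CPM against 862, 243, 659, 1051 and 1436 (-1.64 ± 0.25) and Klf2 at 1.30 to 17.2 against 7.05 to 22.4 (-1.19 ± 0.24). Genes of this kind respond to tissue digestion. Complement was split with 4 of 16 higher and 4 lower, where C3 was at 26.0 to 133 against 5.6 to 118 CPM and Cfd, complement factor D, at 40.6 to 124 against 769 to 3380 (-4.11 ± 0.35). The call of C3 was lost under 4 of 14 alternatives. The oxidative stress list had 1 of 26 higher and 5 lower, with heme oxygenase Hmox1 at 29.3 to 45.3 against 140 to 232 CPM (-2.31 ± 0.25). Interferon response (2 of 22 higher, 1 lower), IL-4 response (0 of 13 higher, 2 lower), glycolysis and hypoxia (4 of 20 higher, 3 lower) and proliferation (2 of 18 higher, 0 lower) had calls too. Over all genes tested 6.96% were higher and 11.6% lower, and these small counts are not read as results about the lists. Leaving out 1 library moved 5 of the named folds by over 1.5 times, on the log2 scale from 1.43 to 0.81 for C3, 2.13 to 1.25 for Fcnb, -2.93 to -3.55 for Il10 and -4.52 to -5.64 for Pdpn without HFHF-old replicate 1 and from -4.86 to -5.45 for Egfl7 without young replicate 2. Without the rat block 870 genes were called in place of 2416, and without young replicate 1 the number was 1605.

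**Figure D3:**
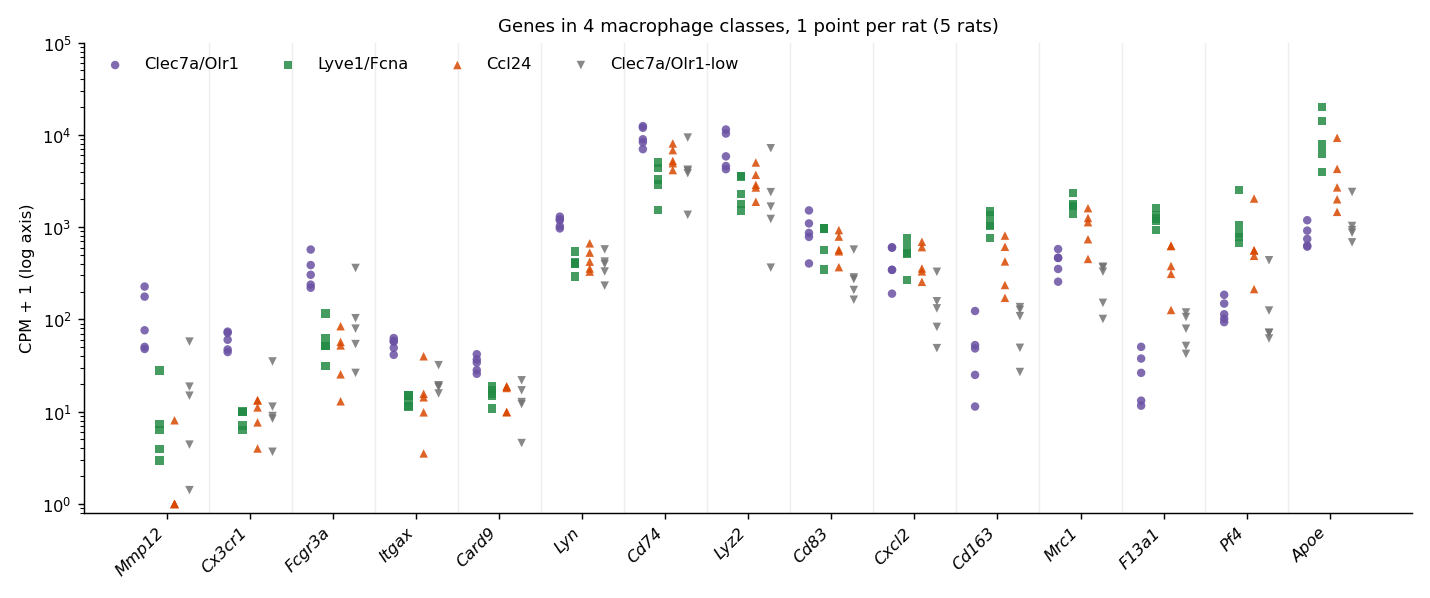
CPM + 1 on a log axis for 15 genes in Clec7a/Olr1, Lyve1/Fcna, Ccl24 and Clec7a/Olr1-low macrophages, 1 point per rat and class in 5 rats. Mmp12 and Cx3cr1 are highest in the Clec7a/Olr1 macrophages of each rat, Cd163, F13a1 and Apoe are lower there than in every Lyve1/Fcna and Ccl24 sample, and Cd83 and Cxcl2 overlap between members and Lyve1/Fcna macrophages.

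Ccl24 macrophages, named for the eosinophil-attracting chemokine eotaxin-2, were compared in the same fit, where 9 of 18 proliferation and 8 of 23 Dectin-1 signalling genes were higher and 10 of 17 resident genes lower in members. In all, 1438 genes were called (11.1%), with 645 higher (4.96%) and 793 lower (6.1%) in members. DESeq2 called 593 higher and 1277 lower. Without old replicate 1 the number of calls was 456, without young replicate 1 it was 716, without young replicate 2 it was 834, and without the rat block it was 466. Ccl24 macrophages were few, at 28 to 132 cells per rat in this fit, with a median depth of 2146 to 6975 UMIs against 4547 to 10898 in members. All 12 acinar markers (median log2 difference -1.57) and 6 of 10 endocrine markers (-2.44) were called lower in members. Leaving out digestive enzyme and hormone genes before scaling gave 1405 calls, and the part of foreign RNA was not tested further.

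Against the Ccl24 class, Mmp12 was at 7.07 CPM in young replicate 2 and 0 in the other 4 rats, against 46.9 to 226 CPM in members (log2 difference 6.07 ± 1.13 SE, edgeR adjusted p = 0.00379). The size of this difference depends on the count added to zeros by the fit, and was 13.9 without young replicate 2 and 5.28 without old replicate 2. Of the 23 Dectin-1 signalling genes 8 were higher and 0 lower, among them Card9 at 24.8 to 41.0 against 8.84 to 17.8 CPM (1.21 ± 0.34, edgeR adjusted p = 0.0275), the exchange factor Vav1 at 17.5 to 34.5 against 2.22 to 15 (1.54 ± 0.39) and Lyn at 968 to 1301 against 329 to 667 (1.27 ± 0.22). Fcgr3a was at 220 to 571 against 12 to 83.5 CPM (2.92 ± 0.42), Cx3cr1 at 43.3 to 72.8 against 2.99 to 12.4 (2.69 ± 0.47) and Itgax at 40.3 to 61.9 against 2.53 to 38.9 (1.78 ± 0.36). Spn, Tnfsf13b and the agrin receptor Lrp4 were higher as well, with log2 differences of 2.25 ± 0.27, 1.91 ± 0.32 and 4.27 ± 0.51 (SE), the last of them 5.25 without old replicate 1. The calls of Card9 and Vav1 were lost under 6 and 2 of 13 alternatives. Each of these 10 genes was higher in members of 5 of 5 rats.

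MHC class II and co-stimulation had 1 of 12 genes called higher against the Ccl24 class (median log2 difference 0.83), namely the co-stimulatory ligand Cd86 at 59.2 to 171 against 24.4 to 81.0 CPM (1.27 ± 0.27, edgeR adjusted p = 0.00803). Cd74 was not called, at 7012 to 12461 against 4157 to 8082 CPM (0.68 ± 0.26, edgeR adjusted p = 0.0995). Of 18 proliferation genes 9 were higher and 0 lower (median 1.64 against -0.01 over all genes). Mki67 was at 148, 150, 62.9, 57.2 and 94.1 CPM in members and 4.88, 60.1, 0, 2.53 and 5.98 in Ccl24 macrophages (2.84 ± 0.73, edgeR adjusted p = 0.0187), Cenpf at 14.7 to 123 against 0 to 30.1 and Cdk1 at 7.67 to 28.0 against 0 to 14.1. The calls of Cenpf, Cdk1 and Mki67 were lost under 5, 6 and 3 of 13 alternatives. Young replicate 2 had the highest Mki67 of the Ccl24 samples, and without it the log2 differences were 4.95 for Mki67, 6.18 for Cenpf and 4.72 for Cdk1, in place of 2.84, 2.76 and 2.41. Of 17 resident genes 10 were lower and 1 was higher. F13a1 was at 10.6 to 49.5 against 126 to 629 CPM (-3.98 ± 0.44), Cd163 at 10.4 to 122 against 170 to 809 (-3.34 ± 0.44), Stab1 at 5.64 to 19.9 against 29.9 to 127 (-3.05 ± 0.48) and Mrc1 at 256 to 578 against 452 to 1607 (-1.24 ± 0.30, a call lost under 3 of 13 alternatives). Ccl7 (-3.25 ± 0.42), Pf4 (-2.29 ± 0.32), Cfd (-2.24 ± 0.33), Apoe (-2.03 ± 0.30), the growth factor Hbegf (-2.89 ± 0.68) and the arginine-degrading enzyme Arg1 (-2.76 ± 0.80) were lower too. Arg1 was above members in old replicates 1 and 2 and young replicate 2 and at 0 in the other Ccl24 samples, and its call was lost under 5 of 13 alternatives, with a log2 difference of -1.1 without old replicate 1. Without HFHF-old replicate 1 Stab1 differed by -3.72 and Hbegf by -2.02. The myeloid hexokinase Hk3 was at 23.4 to 28.2 against 0 to 8.97 CPM, a call lost under 7 of 13 alternatives.

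The Clec7a/Olr1-low macrophages differ from members by rule only in the UMIs of Clec7a and Olr1, and this comparison called the most genes, 4143 (31.9%), with 1509 higher (11.6%) and 2634 lower (20.3%) in members. They were shallower, with a median of 1712 to 8552 UMIs per library, and held more hormone and digestive transcripts. All 10 endocrine markers, all 12 acinar markers and all 8 fibroblast markers were called lower in members, as were 9 of 10 T and NK cell markers (median log2 difference -1.40) and 4 of 5 B and plasma cell markers (-2.53), and the summed endocrine markers were at 1150 to 66179 CPM in members against 83386 to 551512 in the low class of the same 5 rats. Ins1, one of the rat insulin genes, was at 414 to 22964 against 34406 to 250099 CPM, glucagon, Gcg, at 29.2 to 19016 against 2516 to 49048, and Sst at 5.30 to 436 against 350 to 2819. Ins1 and Ins2 are near-identical, so their reads may be divided between them. With digestive enzyme and hormone genes left out before scaling, an alternative chosen after seeing the data, 3971 genes were called. The part of depth and of the remaining foreign RNA in these calls was not tested.

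Receptor, signalling and antigen presentation genes were higher in members than in the low class, which held more RNA of other cells. The part of that RNA in these differences was not tested beyond leaving out digestive enzyme and hormone genes. Of 30 pattern recognition and scavenger receptors 25 were higher and 0 lower (median log2 difference 1.36), as were 15 of 23 Dectin-1 signalling genes (0.94), 11 of 12 MHC class II genes (1.11) and 12 of 25 NF-kB genes, where 3 were lower. Syk was at 117, 117, 110, 90.9 and 142 CPM in members against 59.5, 50.7, 47.5, 78.6 and 33.4 (1.12 ± 0.20 SE, edgeR adjusted p = 0.000425), and Blnk at 232 to 308 against 21.0 to 144 (1.80 ± 0.29). The lectin receptors Clec12a (30.1 to 56.6 against 1.1 to 30.2 CPM), Clec5a (35.8 to 76.2 against 1.03 to 25.2) and Clec4e, called Mincle (0.312 to 16.8 against 0.309 to 1.73), and the sensors Tlr8 (32.8 to 46.0 against 2.68 to 25.5) and Nod2 (8.46 to 58.3 against 4.51 to 16.4) were called higher. Clec4e was the exception within these, being lower in members than in the low class of old replicate 2. The NADPH oxidase subunits Cybb and Ncf1 were at 1170 to 1426 against 91.6 to 713 CPM and 99.0 to 251 against 16.7 to 108 CPM. The ATP receptor P2rx7 (2.45 ± 0.33), the lipoprotein-associated phospholipase Pla2g7 (3.17 ± 0.56), the cholesterol-esterifying enzyme Soat1 (1.75 ± 0.23) and Gpnmb (1.60 ± 0.40) were higher too. Il1b was at 52.0 to 345 against 23.2 to 240 CPM (1.32 ± 0.33, edgeR adjusted p = 0.00433), Cd80 at 6.34 to 23.0 against 1.43 to 7.35 and the chemokine Ccl9 at 4.55 to 60.1 against 0.713 to 6.48. The growth factors Vegfa (9.11 to 17.8 against 32.1 to 139 CPM, -2.42 ± 0.21) and Fgf2 (0 to 2.65 against 2.50 to 98.3 CPM, -4.19 ± 0.39) were lower. Without old replicate 2 the log2 difference was 3.92 for Pla2g7, 3.22 for Clec12a, -4.84 for Ins1 and -7.03 for Sst, and without HFHF-old replicate 1 it was -3.60 for Fgf2, 1.66 for Ccl9, -3 for Gcg and 1.64 for Clec4e, whose call was lost. Without old replicate 1 it was 3.24 for Ccl9, -4.53 for Ins1 and -4.36 for Sst, without young replicate 1 it was -3.15 for Ins1 and -4.30 for Sst, and without young replicate 2 it was -4.55 for Gcg. With all 5 rats these were 2.57 for Ccl9, 2.49 for Clec12a, 2.35 for Clec4e, -3.81 for Ins1, -3.84 for Gcg and -4.96 for Sst.

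Members with and without Olr1 were then compared within the 6 rats, over 481 members with an Olr1 UMI and 992 without. Of 9864 genes 1 was called (0.0101%), and 445 had an unadjusted p under 0.05, while DESeq2 called 0. The called gene was Wfdc21, which encodes a small secreted protein, with a log2 difference of 6.25 ± 0.42 (SE, edgeR adjusted p = 0.000668), named here after its values were seen. Its UMIs lay in few cells. Only 20 members carried any, 1 cell of old replicate 1 held 288 of that library's 300 UMIs and 1 cell of HFHF-old replicate 1 held 377 of 618. Without old replicate 1 or HFHF-old replicate 1, 0 genes were called. No gene of the 16 lists was called. The resident gene Mrc1 was lower beside Olr1 in 6 of 6 rats, at 492, 319, 312, 231, 427 and 97.6 CPM with Olr1 and 711, 607, 460, 308, 678 and 140 without (-0.59 ± 0.09 SE, edgeR adjusted p = 0.259). The lysosomal protease Ctsd was above in 6 of 6 rats (85.4 to 271 against 60.1 to 161 CPM, edgeR adjusted p = 0.494), and the median over the 28 lysosome and lipid-handling genes was 0.22, with 24 above 0, against 0.01 over all genes. Of 12 MHC class II genes 2 were above 0 (median -0.37), where Cd74 was at 6032 to 12870 against 9973 to 14650 CPM and RT1-Da at 2077 to 7003 against 3927 to 8220. Pf4 was below in 6 of 6 rats (-0.64 ± 0.14). The fatty acid carrier Fabp4 and Spp1 were each above in 4 rats, Fabp4 at 581 against 11.1 CPM in young replicate 1 but 0 against 40.1 in HFHF-old replicate 2. Markers of other cells also differed, with 8 of 8 fibroblast markers (median log2 difference 1.17, 5 with an unadjusted p under 0.05) and 5 of 5 endothelial markers (1.45) above 0 beside Olr1, 1 of 10 endocrine (-0.85) and 0 of 12 acinar markers (-0.43). None of these was called, and the part of such RNA was not tested.

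Within the members, age and diet were compared on UMI counts summed per rat in 1 fit over all 6 rats (edgeR, 10329 genes). For old against young, HFHF-old against old and HFHF-old against young rats, 0 genes were called in each contrast (0%). At an unadjusted p under 0.05 there were 452, 1011 and 932 genes, and the smallest adjusted p was 0.515, 0.364 and 0.206. DESeq2 called 20, 26 and 61 genes. Without HFHF-old replicate 2 that group held 1 library, so the calls of that fit are not given. The values below are therefore levels per library and fitted differences, none of which passed the edgeR test. Every gene named below for a contrast had groups that did not overlap, so such a separation follows from the choice of genes. The share of all genes tested that separated so was not counted. The sums behind them held 314908 UMIs in HFHF-old replicate 2 and 1297709 to 4392015 in the other libraries.

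Between old and young rats, the listed gene with the largest fitted difference belonged to antigen presentation. The class II chain RT1-Bb was at 67.1 and 71.2 CPM in young, 4814 and 2331 in old, and 150 and 421 in HFHF-old members, a log2 difference of 5.66 ± 0.67 (SE, edgeR adjusted p = 0.515) between old and young. In the Lyve1/Fcna macrophages RT1-Bb was at 25 and 33 CPM in young, 1732 and 565 in old and 30.7 in HFHF-old replicate 1, so the old rats lay above the young there too while the HFHF-old value fell between the young ones. Its counts share the uncertainty of the RT1 genes given above. RT1-Db1 was at 2277 and 2702, 8153 and 7356, and 3042 and 6293 CPM, and Cd86 at 77.5 and 65.5, 152 and 187, and 96.4 and 156 CPM. For these 3 genes both old libraries lay above both young ones, which follows from the choice of genes. Over the list, 11 of 12 genes had a difference above 0 (median 1.04 against -0.01 over all genes).

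Il1b, which encodes the inflammatory cytokine IL-1β, was at 57.3 and 77.0 CPM in young, 382 and 297 in old, and 219 and 310 in HFHF-old members. Both young libraries lay below the other 4, and the log2 difference was 2.31 ± 0.31 (SE, edgeR adjusted p = 0.515) for old and 1.99 ± 0.31 (edgeR adjusted p = 0.302) for HFHF-old against young rats. DESeq2 called Il1b in both contrasts, and RT1-Bb, RT1-Db1, Lyz2, Junb and Atf3 for old against young. The Lyve1/Fcna macrophages of the old rats also had 323 and 297 CPM, against 65.1 and 32.9 in the young and 58.6 in HFHF-old replicate 1. Osm, oncostatin M, was at 5.59 and 6.48, 46.6 and 20.8, and 19.5 and 11.4 CPM, and Il18 at 175 and 195, 345 and 372, and 189 and 361. Lyz2 was at 4683 and 5091, 12672 and 11312, and 6617 and 7343 CPM (1.27 ± 0.36 for old against young). The transcription factor genes Junb (1.04 ± 0.24) and Atf3 (1.59 ± 0.38), both of the immediate early and dissociation response list, had fitted differences above 0 for old against young. Dusp2 of the same list was below 0. Above 0 were also the lipid enzyme Soat1 (1.00 ± 0.26), the NADPH oxidase subunit Cyba (1.16 ± 0.33), the chemokine Ccl6 (0.81 ± 0.28), the NF-kB subunit Relb (0.73 ± 0.24) and the interferon-induced Isg15 (1.37 ± 0.31). Below 0 were Cd163, at 135 and 52.5 CPM in young and 11.5 and 26.3 in old members, the leukotriene C4 synthase Ltc4s, at 93.6 and 199 against 33.9 and 38.2, and the phosphatase Dusp2, at 34.9 and 41.0 against 8.23 and 3.75. Resident genes had 4 of 15 above 0 (median -0.62), proliferation 1 of 16 (-0.95), NF-kB response 22 of 25 (0.37) and Dectin-1 signalling 11 of 23 (-0.02).

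Between HFHF-old and old rats the NF-kB and immediate early genes had the largest medians of the 16 lists, markers of other cells apart. This rank of NF-kB genes was lost without HFHF-old replicate 2. The proliferation median then went from 0.28 to 0.69 (12 of 16 genes above 0), against 0.65 for NF-kB and 0.99 for immediate early genes. Nfkbiz, a nuclear IκB protein, was at 277 and 171 CPM in young, 340 and 228 in old, and 705 and 691 in HFHF-old members (1.35 ± 0.33 SE against old, edgeR adjusted p = 0.507). Egr1 was at 244 and 64.0, 206 and 331, and 950 and 597 CPM (1.58 ± 0.60), Fosb at 574 and 171, 552 and 489, and 1562 and 1084 (1.40 ± 0.53), and Nr4a1 at 58.0 and 30.2, 96.0 and 78.2, and 171 and 134 (0.87 ± 0.33). For these 4 genes both HFHF-old libraries lay above the other 4. They were picked among genes with groups that did not overlap, so this is not read as a result. The share of all genes tested with such a separation was not counted. The macrophage chemokine Ccl4 was at 708 and 1744 CPM in HFHF-old members against 391 and 168 in old and 418 and 284 in young, Ccl9 at 67.9 and 48.4 against 15.5 and 10.6, and the growth factor Csf1 at 62.9 and 59.7 against 17.0 and 10.2. Their lists did not move the same way. Chemokines had 6 of 15 genes above 0 (median -0.05) and cytokines and growth factors 6 of 17 (-0.10). Icam1, Egr2 and the nuclear receptor Pparg had fitted log2 differences of 1.26 ± 0.48, 2.07 ± 0.58 and 1.51 ± 0.47. The lysosome and lipid-handling list, which holds Pparg, had 16 of 28 above 0 (median 0.15). The kinase Syk was at 161 and 176 CPM against 122 and 99.3, and the PI3-kinase subunit Pik3r1 at 308 and 344 against 192 and 181. Card9 of the same list went the other way, at a mean of 23.9 CPM in HFHF-old and 37.9 in old members (-0.54 ± 0.32). Dectin-1 signalling as a list had 14 of 23 above 0 (median 0.11 against 0.04 over all genes), and 10 of 23 (-0.11) without HFHF-old replicate 2.

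NF-kB response genes were above 0 in 22 of 25 (median 0.54) and immediate early and dissociation genes in 17 of 21 (median 0.87) for HFHF-old against old rats, 6 and 10 of them with an unadjusted p under 0.05. Over all 10329 genes tested 5431 were above 0 and 1011 had such a p. Against young rats the counts were 25 of 25 (median 1.09) and 21 of 21 (median 1.26), 13 and 13 with an unadjusted p under 0.05, where 5003 of all genes were above 0 and 932 had such a p. These contrasts share the HFHF-old libraries, so the counts are not separate evidence. Without HFHF-old replicate 2 the medians were 0.65 and 0.99 against old and 0.95 and 1.44 against young rats. Oxidative stress genes had 9 of 26 above 0 (median -0.34) for HFHF-old against old rats. Gclc, which makes the precursor of glutathione, was at 118 and 96.7 CPM in HFHF-old, 57.1 and 54.6 in old and 43.3 and 38.1 in young members, while the peroxiredoxins Prdx1 and Prdx5 were at 224 and 131 against 295 and 481 and at 120 and 96.7 against 223 and 231. MHC class II had 2 of 12 above 0 (median -0.39) against old and 12 of 12 (median 0.78) against young rats, and 0 of 12 (-0.85) and 7 of 12 (0.18) without HFHF-old replicate 2. RT1-Bb and Isg15 differed by -3.61 ± 0.61 and -1.38 ± 0.33 and Dusp2 by 3.07 ± 0.50 between HFHF-old and old rats. The interferon response list, which holds Isg15, was mixed, with 9 of 22 above 0 (median -0.07).

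Against young rats, HFHF-old members had Atf3, a stress-induced transcription factor, at 780 and 538 CPM against 188 and 92.1 (2.26 ± 0.39 SE, edgeR adjusted p = 0.35), the NF-kB inhibitor Tnfaip3 at 265 and 176 against 91.5 and 44.6 (1.74 ± 0.41) and Cd83 at 1716 and 1058 against 864 and 446 (1.11 ± 0.41). DESeq2 called Atf3, Tnfaip3, Nfkbiz, Nr4a1, Gclc, Egr1, Ccl9 and RT1-Bb in this contrast, and among the genes named here Ccl4, Ccl9, Csf1, Nfkbiz, Dusp2 and RT1-Bb for HFHF-old against old rats. Complement had 13 of 15 above 0 (median 0.52), and resident genes 2 of 15 (median -0.47), or 5 of 15 (-0.05) without HFHF-old replicate 2, with Ltc4s at 9.99 and 45.5 against 93.6 and 199 CPM. Since the groups of every gene named here did not overlap, a direction could hardly turn with 1 library left out. Without HFHF-old replicate 2 all 18 genes named against old rats, Card9 apart, and all 13 named against young rats kept their direction. Of these, 2 and 3 had a fold that moved by over 1.5 times. Ccl4 went from 2.20 to 1.36 against old and from 1.84 to 1.00 against young rats on the log2 scale, RT1-Bb from -3.61 to -4.56 and from 2.05 to 1.1, and Ltc4s from -2.77 to -3.88 against young rats.

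**Figure D4:**
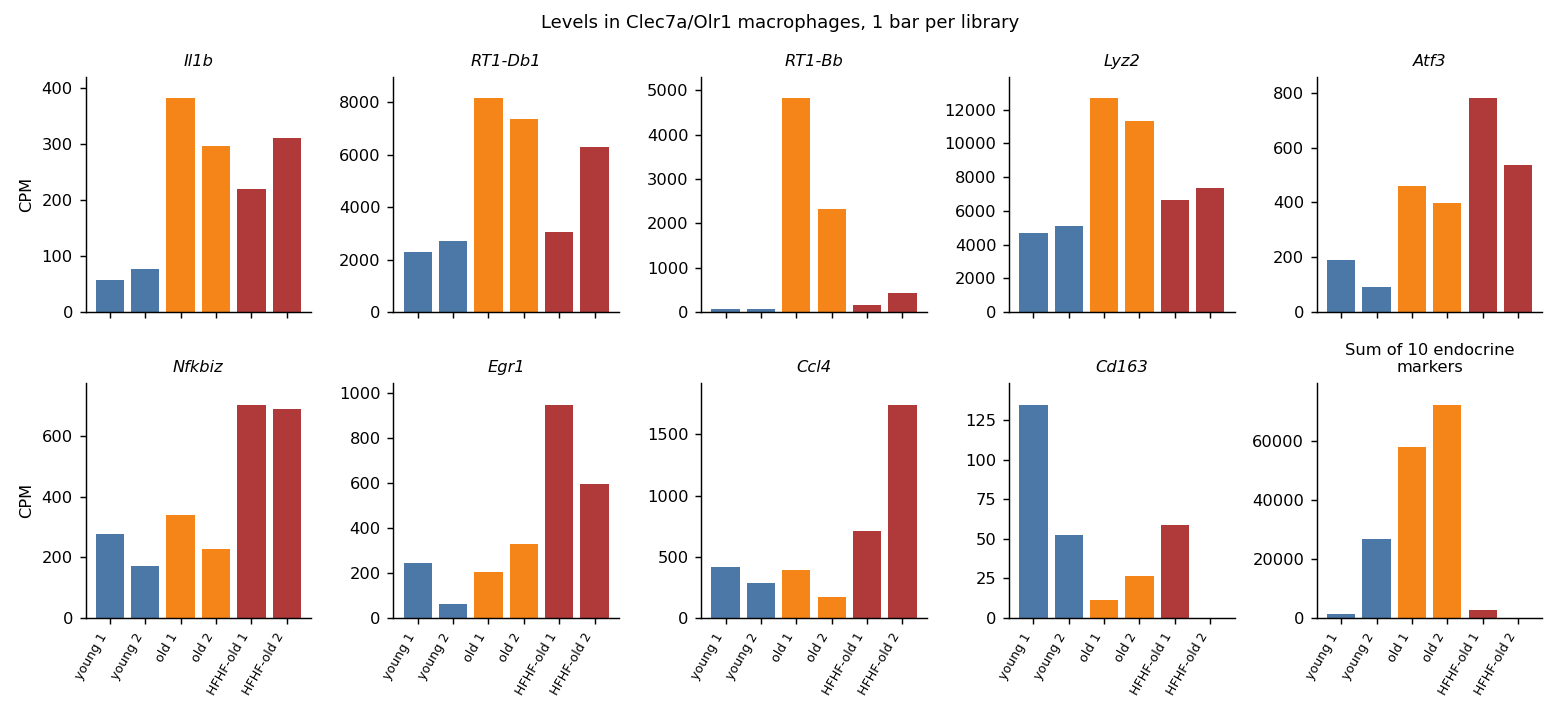
CPM of 9 genes, and of the sum of 10 endocrine markers, in Clec7a/Olr1 macrophages of each library, 1 bar per library coloured by group. The young bars are lowest for Il1b (57.3 and 77.0 CPM), the HFHF-old bars highest for Nfkbiz (705 and 691 CPM), and the endocrine sum runs from 5.69 CPM in HFHF-old replicate 2 to 72302 in old replicate 2.

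**Figure D5:**
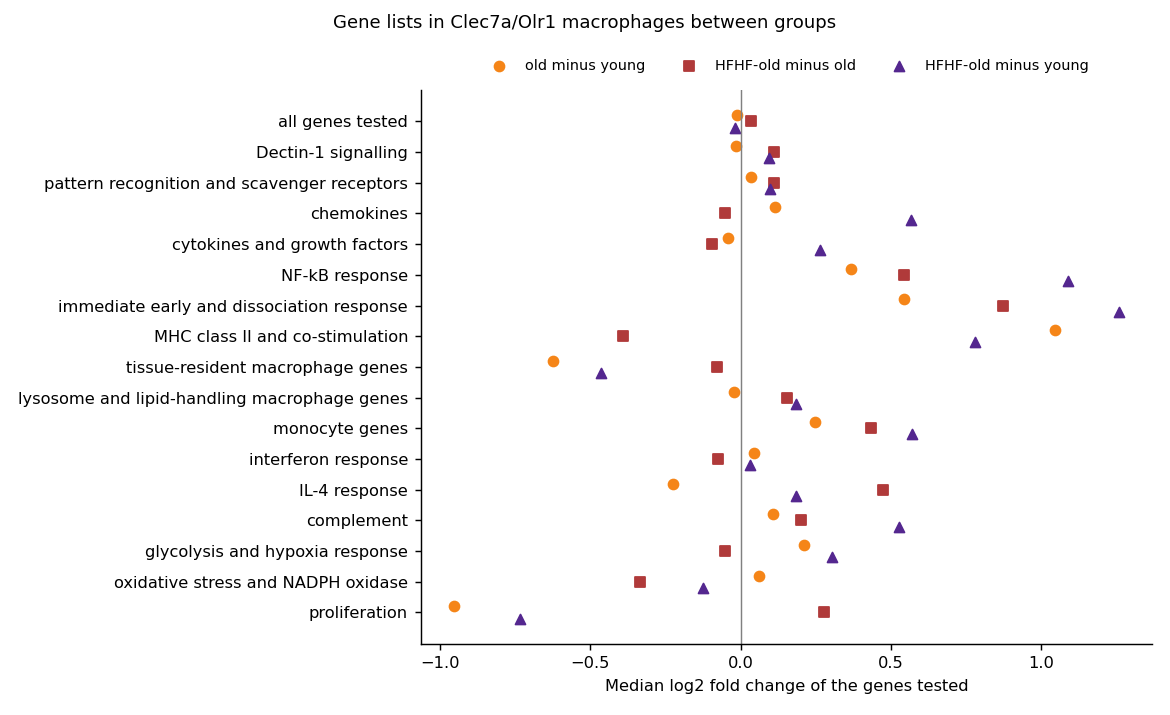
Median fitted log2 difference over the tested genes of each list, and over all genes, for 3 contrasts between groups within Clec7a/Olr1 macrophages. Of the 16 lists, immediate early and NF-kB response genes have the highest medians for HFHF-old minus young rats (1.26 and 1.09), MHC class II genes for old minus young rats (1.04), and no gene was called by edgeR.

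RNA of other cells differed between libraries, also within a group, and is given here for each list. The acinar sum, for one, was 2771 and 16634 CPM in young, 4350 and 2783 in old, and 10323 and 330 in HFHF-old members. The 10 endocrine markers, led by Ins1, Ins2 and Gcg, summed to 1267 and 26772 CPM in young, 58063 and 72302 in old, and 2832 and 5.69 in HFHF-old members, and 9 of the 10 had a fitted difference above 0 for old against young rats (median 2.30) and 0 for HFHF-old against old rats (-5.10). For old against young rats 1 of 12 acinar (-1.42), 0 of 8 fibroblast (-1.17), 0 of 5 endothelial (-1.78) and 0 of 10 T and NK cell markers (-1.32) were above 0. For HFHF-old against old rats 8 of 12 acinar (0.70), 7 of 8 fibroblast (1.78), 3 of 5 endothelial (0.25), 8 of 10 T and NK cell (0.72) and 7 of 8 dendritic cell markers (0.85) were above 0, and without HFHF-old replicate 2 the acinar count was 11 of 12 (1.55) and the fibroblast count 8 of 8 (2.66). Against young rats HFHF-old members had 1 of 10 endocrine (-2.66), 2 of 12 acinar (-0.47), 3 of 8 fibroblast (-0.25), 1 of 5 endothelial (-0.70), 0 of 10 T and NK cell (-1.05) and 6 of 8 dendritic cell markers (0.59) above 0. Acinar and fibroblast markers turned without HFHF-old replicate 2, with 8 of 12 (0.34) and 7 of 8 (0.48) above 0. The 12 acinar markers summed to 330 to 16634 CPM, the 8 fibroblast markers to 128 to 2342, the 7 measured endothelial markers to 19.9 to 180 and the 10 T and NK cell markers to 107 to 526 CPM. Neutrophil markers, led by S100a9 and S100a8, summed to 0 to 25.2 CPM in 5 libraries and 246 in HFHF-old replicate 1. Dendritic cell markers, led by Flt3, summed to 124 to 304 CPM. B and plasma cell markers were at 2.10 to 4.99 CPM in 5 libraries and 177 in old replicate 2, with Ms4a1 at 0 in every member. Mast cell markers were at 5.49 to 25.6 CPM, with Ms4a2 and Fcer1a at 0, and 3 erythroid genes at 0 to 30.4 CPM. The part of this RNA in the comparisons between groups was not tested beyond leaving out digestive enzyme and hormone genes before scaling, after which edgeR again called 0 genes in each of the 3 contrasts.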

How the data were processed

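Cells of isolated islets from 6 male Wistar rats (young, old and HFHF-old, 2 each) were loaded by the authors on the 10x Genomics 3' v3.1 system. The deposited values are whole-number counts of UMIs per gene and barcode, made by the authors with Cell Ranger (5.0.0 per the file headers) on build Rnor_6.0 per the labels. The filtered matrices held 78024 barcodes and 32883 genes, and 0 columns of other samples. They give no coordinates, so none are printed.

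Cells were gated by the rule in the report. The authors' filter on the top 1% of gene number was not part of it and was an alternative. UMI counts were summed per rat, or per rat and class, where at least 10 cells were present, and tested with edgeR 4.0.16 (R 4.3.3, TMM, filterByExpr, glmQLFit and glmQLFTest, tested on simulated data) with Benjamini-Hochberg adjustment over all genes tested. Genes were called at an adjusted p under 0.05 and a fold over 1.5, the limits of the study. The SE beside a log2 difference is its absolute value divided by the square root of its quasi-likelihood F. It is thus derived from the test and is not a standard error given by the fit. Levels are CPM scaled by TMM within a fit, so the same sample differs slightly between the fit over groups and that over classes, and without gene length they are not compared between genes. Doublets were scored per library against simulated doublets (30 neighbours, 20 components, 2000 genes) and kept. Shares of macrophages and of cells were tested over rats with two-sided exact permutation tests. Classes within a rat were blocked by rat, and groups were not blocked. Replicate numbers did not pair the rats (correlation of same-numbered deviations 0.06, 0.06 and -0.07).

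The genes named were, per comparison, up to 10 called genes in each direction with the largest change, the same sign in every rat and at least 20 CPM in the higher class, up to 6 genes with the largest change from each of 16 lists, and genes a reader would look for (Il1b, Cd83, Cxcl2, Lyz2, Cd163, Mrc1, Trem2, Spp1, Cd74, Cx3cr1, Card9 and Syk among them). Of these, those shown are a selection, and every gene shown for a contrast between groups had groups that did not overlap. The members and lists were chosen with earlier results of these data known. DESeq2 1.42.0, RLE scaling, no filter on low counts, other thresholds, doublet removal, blocking and leaving out each rat were alternatives. Total UMIs per sum limit the precision.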

Additional observations from a re-analysis of the deposited data

How the results depend on the processing

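Between the groups, edgeR called 0 genes in each contrast under every alternative except those named here. For old against young, HFHF-old against old and HFHF-old against young rats, DESeq2 called 20, 26 and 61 genes. In the same order edgeR without a filter on low counts called 274, 560 and 479. Leaving out a rat left 1 library in its group, so the calls of those fits are not given. With the replicate number as a block the counts were 0, 0 and 0 (438, 760 and 752 at an unadjusted p under 0.05). Against Lyve1/Fcna, Ccl24 and low macrophages, the fit with no replicate block called 870, 466 and 2574 genes, against 2416, 1438 and 4143 with the rats as blocks, and leaving out each rat gave 1605 to 2340, 456 to 1540 and 3214 to 4368. Between members with and without Olr1, the 1 call became 0 with DESeq2, 0 with no replicate block, 172 with no filter, 16 without labelled doublets, 2 with at least 3 UMIs and 0 to 6 with a rat left out (0 without old replicate 1 or HFHF-old replicate 1). With a rat left out, the difference in the share of macrophages ranged from -12.5 to 28.6 percentage points for HFHF-old minus old and from -0.533 to 40.5 for HFHF-old minus young rats, that in the share of cells from -0.998 to 0.192 for HFHF-old minus young, and that in the share with Olr1 from -2.60 (without old replicate 1) to 14.4 for old minus young. The lowest values of the macrophage shares and the highest of the cell share came without HFHF-old replicate 2. Members numbered 890 (without old replicate 2) to 1441. The causes were not tested. For named genes, Card9 between HFHF-old and old rats apart, 2210 of 2348 alternative values kept direction and call, 70 lost the call, 68 gained it and 0 reversed. Many of these genes shared a sign in every rat or had groups that did not overlap, so few could reverse. Their fitted differences still moved. Egr1 lay between 1.20 and 2.38 for HFHF-old minus old rats (1.58 in the main fit). Cd163 lay between -3.07 and -1.50 for old minus young rats (-2.35 in the main fit).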
